A study of Homo sapiens with 3 samples.

Results

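Villin was reduced by siRNA in HepG2 cells, an established human hepatocellular carcinoma line, and the transcripts of these cells were compared with those of cells given a negative control siRNA. The comparison covers all 24460 gene probes of a one-colour array, of which 21723 (88.8%) had a value on both arrays in the authors' deposited table. A further 367 probes had a value only on the control siRNA array and 802 only on the villin siRNA array, and 1568 had none on either. After the brightest probe was taken for each gene, 15907 of 17559 named genes could be compared, and 3709 probes without a gene name were kept apart.

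HepG2 cells growing in serum-containing minimum essential medium received 10 nM siRNA by lipid transfection, and RNA was taken at 72 h. The groups were a negative control siRNA, an siRNA against villin and an siRNA against PTK7, with 1 array each. The labels name a pair of villin siRNAs and do not say which of them, or whether a mixture, went onto the array. The effect of losing villin and any other effect of the siRNA used therefore cannot be told apart, nor can either be told apart from the difference between a pair of single cultures. No test of a difference was possible with 1 array per group. Each value below describes these arrays, and their number limits its precision.

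Villin is a calcium-regulated protein of the gelsolin family that bundles, caps and severs actin filaments. It is best known from the microvilli of intestine and kidney, and in liver it lies at the bile canaliculus, the apical surface between neighbouring hepatocytes. HepG2 cells form canaliculus-like spaces in culture and secrete many plasma proteins of the hepatocyte. S100 proteins are small calcium-binding proteins that, like annexins, act at membranes and at the actin cortex.

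Deposited intensities are given below in the order control siRNA, villin siRNA and the array labelled PTK7 siRNA. On this scale each array has a median of 25. The third array is shown as a further reading of each probe, since its own PTK7 probe, at 14, 25 and 12, was not lower there by 2-fold. Fold and log2 differences are villin siRNA over control siRNA and come from normalised scanner intensities with an offset that shrinks the differences of dim genes. Differences followed the place of a spot on the slide, so a value after scaling each spot to its surroundings (position scaling) is given beside each fold. Intensities of different probes are not compared with each other.

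VIL1 read 924, 129 and 1084, a 5.66-fold lower value with villin siRNA (4.62-fold after position scaling). The villin siRNA array was the low one of the 3, and the other 2 lay close together. In RNA from a whole culture, fewer silenced cells with a deep loss and more cells with a partial loss cannot be told apart. None of the other 7 members of the gelsolin and villin family was lower by 1.5-fold. Supervillin (SVIL), a membrane-bound relative that ties myosin and actin to the plasma membrane, read 255, 525 and 306 and was 1.93-fold higher (1.8-fold after scaling). Flightless (FLII), a relative with added leucine-rich repeats, read 537, 735 and 612 and lay 0.46 higher on the log2 scale. The severing and capping proteins gelsolin (GSN), scinderin (SCIN), advillin (AVIL), villin-like (VILL) and CAPG lay between -0.13 and 0.11, all at deposited values of 72 or less.

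Of all genes 1.59% were at least 1.5-fold higher and 0.522% lower. Among 21 detected genes of the microvillus core and its membrane linkers, 1 was higher and none lower at this threshold. It was EPS8L2, a relative of the actin-capping protein EPS8, which read 72, 141 and 140 and lay at 0.67, but at -0.19 after position scaling. In the deposited table, which has no offset, 6 of the 21 were at least 1.5-fold higher and none lower (10.4% and 5.41% of all genes). The actin bundlers plastin, espin and fascin were dim, and the offset shrinks differences of dim genes. Plastin PLS1 read 21, 35 and 28 (log2 difference 0.26), espin (ESPN) 13, 12 and 20 (-0.04) and fascin (FSCN1) 21, 18 and 15 (-0.09). BAIAP2L1, which bends membrane and bundles actin at microvilli, read 167, 265 and 220 and lay at 0.54 (0.49 after scaling). The membrane linker moesin (MSN) read 80, 57 and 50 and lay at -0.37 (-0.12 after scaling).

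Over all 15907 genes, 46 (0.289%) reached a 2-fold higher value with villin siRNA and 2 (0.0126%) a 2-fold lower one. At 1.5-fold the counts were 253 (1.59%) higher and 83 (0.522%) lower, and 97.9% of genes lay within 1.5-fold. Median scaling in place of quantile normalisation gave 368 and 49 at 1.5-fold, a still more uneven split. From the first to the third quartile the differences ran from -0.096 to 0.075 on the log2 scale, around a median of -0.011. With genes grouped by their control value, most of the excess of higher genes lay at middle intensity in this setting. The control value is also part of the difference, so the grouping is not independent of it. Of 4067 genes with a deposited control value of 25 to below 100, 82 were at least 1.5-fold higher and 5 lower, and of 3340 from 100 to below 500, 118 and 39. Among the 1547 genes at 500 or more the counts were even, with 35 higher and 39 lower. Below 5 the offset left almost no room, with 2 higher and none lower of 1965 genes. From 5 to below 25 there were 16 and none of 4988. In the deposited table, without an offset, 320 genes were at least 2-fold higher and 221 lower below 5, and 154 and 55 from 5 to below 25. From 25 to below 100 there were 76 and 7, and from 100 to below 500 there were 38 and 3. The intensity at which the excess lay thus depends on the processing.

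**Figure D1:**
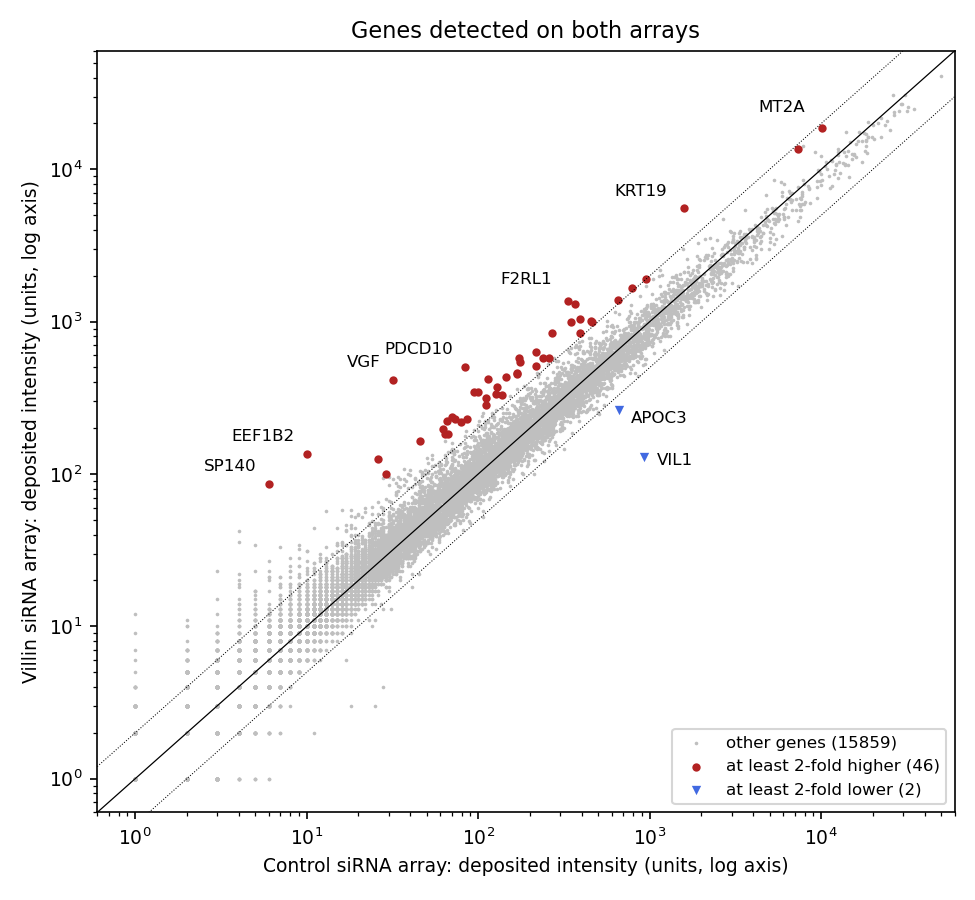
Deposited intensity of each gene on the control siRNA array (x axis) against the villin siRNA array (y axis), both on log axes in intensity units, for 15907 genes detected on both arrays, 1 point per gene. Solid and dotted lines mark equality and a 2-fold ratio of the deposited values. The 46 genes at least 2-fold higher (red) have control values from 6 to 10060, while VIL1 and APOC3 (blue) are the 2 lower ones. Many dim grey genes lie beyond the dotted lines, where the deposited values have no offset.

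By block of spots, the median difference went from -0.12 in blocks 4 and 5 of the slide to 0.13 in block 24, and 64 of the 253 genes at least 1.5-fold higher lay in block 24 alone. After position scaling the block medians lay between -0.01 and 0.00, and 30 (0.189%) genes were at least 2-fold higher and 2 (0.0126%) lower, or 144 (0.905%) and 45 (0.283%) at 1.5-fold. All 46 higher genes kept their sign, and 27 stayed beyond 2-fold. A core of 117 higher and 26 lower genes was beyond 1.5-fold both with and without this scaling. S100A6 and the transcription regulator TSC22D1 joined the genes beyond 2-fold only after scaling, at 2.37-fold and 2.06-fold, with CCDC9B at 2.04-fold and PBX2, lower by 2.01-fold. These 4 are named here because the count is small, after their values were seen. CNN3, GLG1, ITGB1, CCN2, ZBTB7A, SH3RF2, SDC4 and MRPL52 came down to under 1.5-fold, and all 8 lie in block 23 or 24.

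**Figure D2:**
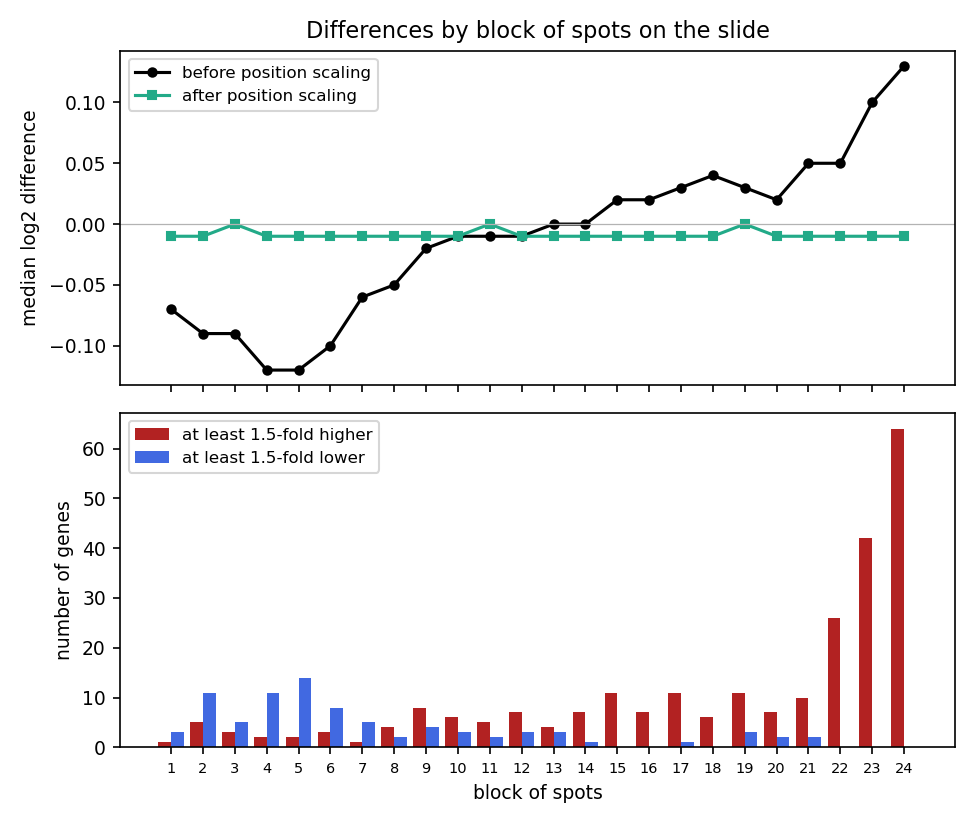
Upper panel, median log2 difference (villin siRNA minus control siRNA) of the genes in each of the 24 blocks of spots (x axis), before (black) and after (green) position scaling. Lower panel, number of genes at least 1.5-fold higher (red) or lower (blue) per block before scaling. The medians climb from -0.12 in blocks 4 and 5 to 0.13 in block 24, where 64 higher genes lie, and are level after scaling.

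The highest genes held several secreted signals. VGF, a granin-like precursor of secreted neuropeptides, read 32, 414 and 26 and was 6.42-fold higher (6.93-fold after scaling), with the control array and the array labelled PTK7 siRNA close together. With the scanner's own background reading its difference turned to -0.18 on the log2 scale. IL11, a cytokine of the interleukin-6 family, read 175, 545 and 219 and was 2.7-fold higher (2.51-fold). IL18, a cytokine released by cleavage in the inflammasome pathway, read 86, 230 and 117 and was 2.11-fold higher (2.1-fold). The other 18 detected members of the list of interleukin-6 family and other cytokines lay within 1.5-fold, from -0.28 for oncostatin M (OSM) to 0.32 for the interleukin-6 receptor (IL6R). CCL20, a chemokine that draws CCR6-bearing lymphocytes and dendritic cells, went the other way, with 1641, 965 and 1430 and a 1.63-fold lower value (1.51-fold).

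Genes of the plasminogen system and of protease-activated receptors stood high. The list, like the others here, was chosen with earlier results of these data known. Of 17 detected, 5 were at least 1.5-fold higher and none lower, beside 1.59% and 0.522% of all genes. After scaling 4 were higher and none lower, with PLAUR and TFPI2 no longer among them and another member joining. Above 0 lay 14 (45.2% of all genes did), and the median was 0.166 (0.111 after scaling), against -0.011 for all genes. F2RL1, the receptor PAR2 that trypsin-like proteases activate, read 335, 1373 and 792 and was 3.82-fold higher (1.98-fold). PLAU, the urokinase that turns plasminogen into plasmin, read 70, 238 and 103 and was 2.48-fold higher (2.04-fold). A second, dim PLAU probe read 6, 17 and 6. The urokinase receptor PLAUR read 43, 94 and 63 and was 1.59-fold higher (1.22-fold after scaling). Both inhibitors in the list with such a difference were higher as well, the serpin SERPINE2 at 137, 331 and 184 (2.1-fold, 2.11-fold after scaling) and the Kunitz inhibitor TFPI2 at 11, 44 and 10 (1.63-fold, 1.42-fold). Plasminogen itself (PLG) read 28, 26 and 24. Of the metalloprotease inhibitors, TIMP1 read 776, 1284 and 650 and was 1.68-fold higher (1.84-fold), and TIMP2 484, 750 and 635 and 1.54-fold (1.65-fold).

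S100 proteins and annexins also stood high. Of 24 detected members 7 were at least 1.5-fold higher and none lower, beside 1.59% and 0.522% of all genes. With 17 above 0 (45.2% of all genes were), the median was 0.239, against -0.011 for all genes. After position scaling 7 were beyond 1.5-fold, with S100A11 no longer among them and another member joining, and the median was 0.165. S100A2, known from squamous epithelium and from p53 family signalling, read 364, 1309 and 566 and was 3.4-fold higher (3.21-fold). S100A3, known from the hair cuticle, read 458, 1001 and 530 and was 2.11-fold higher (1.86-fold). S100A6 read 7804, 14165 and 9341 (1.92-fold, 2.37-fold after scaling) and S100A16 626, 1157 and 694 (1.84-fold, 1.87-fold). S100A11, an annexin partner, read 954, 1726 and 1391 (1.84-fold, 1.36-fold), and S100A13 603, 956 and 629 (1.58-fold, 1.59-fold). For each of these 6 the villin siRNA array was the highest of the 3. Annexin A3 (ANXA3) read 394, 845 and 624 and was 2.08-fold higher (1.95-fold). S100P read 11807, 9357 and 11468 and lay at -0.19 on the log2 scale, and annexin A4 (ANXA4) read 1906, 1345 and 1561 and lay at -0.46 (-0.24 after scaling), so the direction was not shared by the whole family. The S100 genes are similar in sequence, and cross-hybridisation between their probes was not tested.

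Promoters of S100A2, S100A3 and IL11 are shown here because these 3 genes were at least 2-fold higher and each carries a match to the AP-1 motif TGANTCA, the letters bound by FOS and JUN proteins. They are RefSeq promoters of GRCh38.p14, 250 bases before to 50 after the gene's start, on the minus strand at chr1:153565795-153566094, chr1:153549209-153549508 and chr19:55370414-55370713. They read 5′ to 3′ in the direction of the gene, with the match in capitals, 52, 225 and 96 bases before the start.
S100A2: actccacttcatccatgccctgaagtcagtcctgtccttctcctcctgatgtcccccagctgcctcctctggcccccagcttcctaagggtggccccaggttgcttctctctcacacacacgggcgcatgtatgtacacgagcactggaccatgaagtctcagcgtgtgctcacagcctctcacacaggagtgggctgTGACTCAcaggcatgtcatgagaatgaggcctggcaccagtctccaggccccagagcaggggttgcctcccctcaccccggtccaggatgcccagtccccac
S100A3: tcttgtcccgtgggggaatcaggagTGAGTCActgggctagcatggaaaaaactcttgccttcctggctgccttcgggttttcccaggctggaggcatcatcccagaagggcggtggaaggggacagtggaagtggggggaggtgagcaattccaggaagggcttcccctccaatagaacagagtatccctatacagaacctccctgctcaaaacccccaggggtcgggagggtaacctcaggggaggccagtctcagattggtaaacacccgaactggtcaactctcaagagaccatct
IL11: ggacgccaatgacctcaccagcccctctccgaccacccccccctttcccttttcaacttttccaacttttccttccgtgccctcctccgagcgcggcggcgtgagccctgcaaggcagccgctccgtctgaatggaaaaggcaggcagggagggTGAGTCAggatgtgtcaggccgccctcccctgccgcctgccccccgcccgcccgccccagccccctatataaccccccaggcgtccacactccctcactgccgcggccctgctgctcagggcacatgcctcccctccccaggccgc
On either strand the motif was present in 7.76% of 27305 promoters and in 670 (5.25%) of 12760 detected genes that have a promoter in the table. Among genes at least 2-fold higher it was in 6 of 37 (16.2%), namely CAPN2, IL11, MT2A, RAB3B, S100A2 and S100A3. Among genes at least 1.5-fold higher it was in 24 of 205 (11.7%), and in 4 of 62 (6.45%) of those lower. Other motifs were read too, and AP-1 was not alone. GGAATG, bound by TEAD factors, was also in 6 of 37 (16.2%) at 2-fold. At 1.5-fold it was in 34 of 205 (16.6%) higher and 7 of 62 (11.3%) lower genes, against 11.4% of detected genes. The CCAAT box was in 71 of 205 (34.6%) and 30 of 62 (48.4%), against 36.4%. A match describes letters in this window and not binding, and where a gene has several promoters only the one listed first was read. Of the genes for AP-1 proteins, FOSL1 read 154, 127 and 95 and lay at -0.27, and JUN read 200, 264 and 234 and lay at 0.33.

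Keratins, tubulins and actin-binding proteins held some of the highest genes. KRT19, the keratin of bile ducts and liver progenitor cells, read 1573, 5536 and 3101 and was 3.58-fold higher (2.55-fold). KRT23, a type I keratin, read 66, 224 and 143 and was 2.47-fold higher (2.01-fold). KRT18, a hepatocyte keratin, read 9959, 12292 and 12049 and lay at 0.44 (0.13 after scaling). The other 14 of 17 detected keratins also lay within 1.5-fold before scaling. After scaling 3 keratins were at least 1.5-fold higher, another member having joined KRT19 and KRT23. KRTAP3-1 showed a similar size in 2 probes, with 269, 847 and 428 in one and 282, 816 and 410 in the other. They were 2.94-fold and 2.72-fold higher (2.78-fold and 3.04-fold after scaling). The beta-tubulins TUBB2B and TUBB6 read 168, 460 and 223 and 403, 748 and 496, 2.37-fold and 1.82-fold higher (2.33-fold and 1.43-fold after scaling), while the main isotype TUBB lay at -0.36. A second, dim TUBB2B probe lay at 0.14.

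Of 28 detected proteins that bind along actin filaments or serve contraction, 2 were at least 1.5-fold higher and none lower. Over all genes these shares were 1.59% and 0.522%. In the list 23 lay above 0 (45.2% of all genes did). The median was 0.132 (0.117 after scaling). The calponins, which bind actin and restrain myosin, were the 2 above. CNN1 read 62, 197 and 118 (2.31-fold, 1.85-fold after scaling) and CNN3 392, 1034 and 767 (2.51-fold, 1.29-fold). Transgelin (TAGLN) read 156, 231 and 220 and lay at 0.44 (0.41). Among 28 genes of actin nucleation and turnover only ARPC1B, a subunit of the ARP2/3 complex, was beyond 1.5-fold, at 283, 553 and 468 (1.85-fold, 1.28-fold after scaling). The small actin monomer binder thymosin beta-10 (TMSB10) read 7276, 13613 and 10239 and was 2.03-fold higher (1.54-fold). A probe named for TMSB4XP6, a copy of the thymosin beta-4 gene, read 67, 182 and 89 (2.05-fold, 2.0-fold). TMSB4X itself, named here after its values were seen, read 177, 299 and 177 (1.54-fold, 1.9-fold), and transcripts of gene and copy may reach both probes. FHL2, a scaffold of focal adhesions and of gene regulation, read 649, 1396 and 728 and was 2.14-fold higher (1.93-fold). The calpain subunit CAPN2, a calcium-dependent protease that cuts adhesion proteins, read 218, 629 and 371 and was 2.59-fold higher (2.21-fold).

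At the cell surface, NT5E, the ectonucleotidase CD73 of the bile canaliculus and other membranes, read 111, 283 and 153 and was 2.12-fold higher (2.3-fold). NGFR, the p75 neurotrophin receptor, read 79, 220 and 114 and was 2.16-fold higher (2.48-fold). The integrin subunit ITGA2, which binds collagen, read 111, 316 and 224 (2.34-fold, 1.72-fold after scaling). ITGAL, an alpha subunit of leukocytes, read 28, 4 and 27, with the villin siRNA array near the floor, so the size of its log2 difference was set by the treatment of low signal (-0.68, and -0.03 with the scanner's background reading). Other adhesion lists held few or no members beyond 1.5-fold, beside 1.59% of all genes higher and 0.522% lower. None of 19 focal adhesion adaptors, 18 laminins and basement membrane proteins and 15 collagens was, and 11 of the collagens lay below 0. Of 17 cadherins and catenins 1 was, E-cadherin (CDH1), at 84, 178 and 115 (1.72-fold higher, 1.44-fold). Among 25 tetraspanins, organisers of membrane domains, 3 were at least 1.5-fold higher and none lower, beside the same shares of all genes. They were CD9 at 154, 324 and 260 (1.87-fold, 1.53-fold), CD63 at 3607, 5433 and 4758 (1.6-fold, 1.05-fold) and TSPAN1 at 120, 205 and 186 (1.5-fold, 1.77-fold). After scaling 2 tetraspanins were higher and none lower. DPP4, another enzyme of the canalicular membrane, read 157, 282 and 200 and was 1.6-fold higher (1.64-fold). A probe named for CD24P4, a copy of the gene of the surface glycoprotein CD24, read 146, 432 and 231 and was 2.53-fold higher (2.58-fold).

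**Figure D3:**
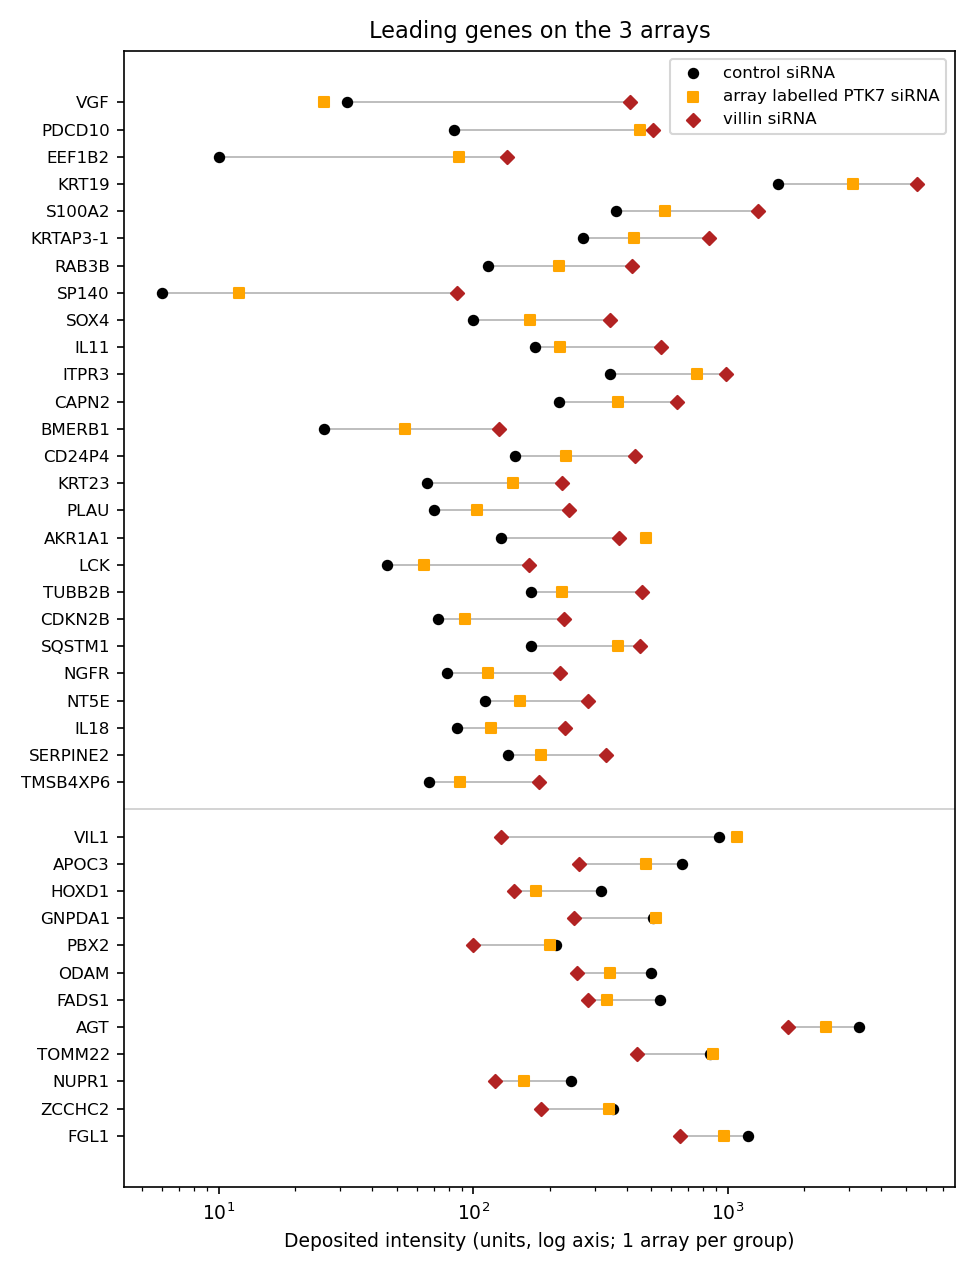
Deposited intensity (log axis, units) on the control siRNA array (black circles), the array labelled PTK7 siRNA (orange squares) and the villin siRNA array (red diamonds). The upper 26 genes were at least 2-fold higher before and after position scaling, with plain subtraction of the blank mean and in the deposited table, and the lower 12 are the lowest of the brighter genes. A line joins control and villin siRNA. Each group has 1 array, so no error is drawn. For VGF, IL11, LCK and CDKN2B the orange square lies near the black circle, whereas for PDCD10, EEF1B2 and AKR1A1 it lies near or beyond the red diamond.

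Among intracellular regulators, CDKN2B, the INK4 inhibitor of CDK4 and CDK6, read 73, 228 and 93 and was 2.34-fold higher (2.19-fold). The other 7 inhibitors of cyclin-dependent kinases lay within 1.5-fold, from CDKN2C, with 119, 84 and 106 and -0.41, to CDKN1A, with 1924, 2349 and 1510 and 0.33. SOX4, a transcription factor of progenitor cells, read 100, 343 and 167 and was 2.73-fold higher (2.62-fold). The other 17 SOX factors lay within 1.5-fold. LCK, a SRC-family kinase best known from T cells, read 46, 165 and 64 and was 2.38-fold higher (2.4-fold). The chromatin reader SP140 read 6, 86 and 12, with the control array near the floor. Its log2 difference was 1.46 with the offset of 50, 2.30 with an offset of 16 and -0.04 with the scanner's background reading, so no fold is given. RAB3B, a GTPase of regulated secretion, read 114, 419 and 218 and was 2.96-fold higher (2.41-fold). ITPR3, the calcium channel of the endoplasmic reticulum that lies beneath the apical membrane of epithelia, read 345, 988 and 756 and was 2.69-fold higher (2.1-fold).

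Of the 46 genes at least 2-fold higher, all but VGF also lay above the control on the array labelled PTK7 siRNA. Most of them did so by at least 1.5-fold, among them F2RL1 (1.15 on the log2 scale), KRT19 (1.01) and ITPR3 (1.04). Others lay closer to the control, such as FHL2 (0.18) and CDKN2B (0.22). Whether a low control reading or a response to both siRNAs lay behind this was not tested. PDCD10, an adaptor of the GCKIII kinases, read 84, 507 and 450, so the control array was the only low one. The same held for the elongation factor subunit EEF1B2, with 10, 136 and 88, and for the aldehyde reductase AKR1A1, with 129, 373 and 476. Against the control array these 3 were 4.38-fold, 3.63-fold and 2.44-fold higher (3.7-fold, 2.87-fold and 2.42-fold after scaling). These folds use the same low control reading as any comparison of the PTK7-labelled array would. EEF1B2 was near the floor on the control array, so its fold depends on the treatment of low signal. Its log2 difference was 1.86 with the offset, 3.77 in the deposited table and 0.25 with the scanner's background reading. The autophagy receptor SQSTM1 read 168, 452 and 370 and was 2.35-fold higher (2.01-fold). Set directly against the array labelled PTK7 siRNA, the villin siRNA array had 8 (0.0502%) genes beyond 2-fold on the higher side and 1 (0.00627%) on the lower side, of 15947. There VGF was higher by 2.82 on the log2 scale, S100A2 by 1.17, IL11 by 1.17, LCK by 0.97 and CDKN2B by 1.01. PDCD10 differed by 0.15 and SQSTM1 by 0.25.

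The heat shock genes depended on slide position. Of 28 detected heat shock genes 6 were at least 1.5-fold higher and none lower, beside 1.59% and 0.522% of all genes. The median was 0.208, but after position scaling the median was 0.016 and 2 were higher. These 2 were the small heat shock proteins CRYAB, at 107, 253 and 194 (1.97-fold, 1.9-fold), and HSPB8, at 13, 57 and 30 (1.84-fold, 1.51-fold). HSPD1, the mitochondrial chaperonin, read 9250, 13017 and 13187 and lay at 0.64, and at -0.15 after scaling. Of 39 proteasome subunits 4 were higher and none lower, or 2 after scaling, and the regulatory subunit PSMD2 lay at 1.54 and 0.65. MT2A, a metallothionein that binds zinc and copper, read 10060, 18533 and 14084 and was 2.07-fold higher (2.02-fold). MT1B read 2668, 4749 and 2969 and was 1.92-fold higher (1.67-fold), whereas MT1G read 956, 722 and 994 and lay at -0.33. Metallothionein transcripts are close in sequence and their probes may share them. SLC39A7, which moves zinc out of the endoplasmic reticulum, read 936, 527 and 619 and was 1.66-fold lower (1.4-fold).

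The lower genes included several of hepatocyte function. Over all genes 0.522% were at least 1.5-fold lower. APOC3, an apolipoprotein that slows the clearance of triglyceride-rich lipoproteins, read 658, 261 and 475 and was 2.31-fold lower (1.95-fold). It was the only one of 21 detected apolipoprotein and lipoprotein assembly genes beyond 1.5-fold. APOC1 and APOC2 read 3828, 2562 and 2974 and 2754, 1785 and 2300 (-0.45 and -0.53 on the log2 scale, -0.39 and -0.17 after scaling), while APOA1 read 1754, 1751 and 1615 and APOB 3574, 3427 and 3486. FGL1, a secreted fibrinogen-like protein of hepatocytes, read 1203, 650 and 969 and was 1.76-fold lower (1.56-fold). It was the single member beyond 1.5-fold of 19 acute phase genes, of which 14 lay below 0 (54.7% of all genes did) with a median of -0.205 (-0.096 after scaling). FABP1, the fatty acid binding protein of liver, read 709, 437 and 614 and was 1.54-fold lower (1.54-fold). The hepatocyte enzymes SULT2A1, which sulphates steroids and bile acids, and ADH6, an alcohol dehydrogenase, read 181, 101 and 191 and 81, 43 and 72. They were 1.63-fold and 1.52-fold lower (1.52-fold and 1.54-fold).

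Of 27 transcription factors and nuclear receptors of hepatocytes, 1 was at least 1.5-fold lower and none higher, beside 0.522% and 1.59% of all genes. It was CEBPA, which read 858, 541 and 806 and was 1.51-fold lower (1.44-fold). The bile acid receptor NR1H4 read 134, 81 and 135 and lay at -0.57 (-0.76 after scaling), and its target NR0B2 read 481, 568 and 456 and lay at 0.23. A1CF, a cofactor of APOB mRNA editing and a regulator of liver mRNAs, read 824, 461 and 791 and was 1.71-fold lower (1.41-fold). In fatty acid synthesis the members went both ways, with 2 higher and 3 lower of 25. The desaturase FADS1 read 543, 282 and 336 (1.82-fold lower, 1.79-fold after scaling), fatty acid synthase (FASN) 5937, 3626 and 4354 (1.51-fold, 1.36-fold), and MLXIPL, the glucose-responsive factor ChREBP, 285, 154 and 240 (1.71-fold, 1.38-fold). The elongase ELOVL1 was higher, at 302, 504 and 340 (1.59-fold, 1.57-fold), as was ATP citrate lyase (ACLY), at 196, 328 and 245 (1.55-fold, 1.41-fold). Cholesterol synthesis and uptake had 1 gene lower of 28, HMGCS1 at 456, 284 and 321 (1.54-fold, 1.29-fold), with 21 below 0 (54.7% of all genes were).

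Several of the lowest genes were low on the villin siRNA array alone. GNPDA1, which feeds glucosamine phosphate into glycolysis, read 508, 248 and 522 and was 1.93-fold lower (1.86-fold). TOMM22, a receptor of the mitochondrial import pore, read 855, 441 and 874 and was 1.82-fold lower (1.76-fold). PBX2, a homeodomain cofactor of HOX proteins, read 211, 100 and 200 and was 1.84-fold lower (2.01-fold), and ZCCHC2 read 354, 185 and 341 (1.79-fold, 1.71-fold). In all 4 the control array and the array labelled PTK7 siRNA lay close together. HOXD1, at 317, 145 and 177, was low on both siRNA arrays (1.97-fold lower, 1.91-fold after scaling), and a second HOXD1 probe lay at -0.23. ODAM, a secreted protein of junctional epithelium in the gum, was lower in both of its probes. They read 500, 256 and 343 and 333, 144 and 225, 1.84-fold and 2.07-fold lower (1.79-fold and 1.73-fold after scaling).

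Several cell cycle lists lay low by small amounts and others did not. Over all genes 54.7% lay below 0, and 54.2% after position scaling. At 1.5-fold 1.59% of all genes were higher and 0.522% lower. Of 22 kinases and checkpoint proteins of mitosis 2 were at least 1.5-fold lower and none higher, 16 lay below 0 and the median was -0.230 (-0.186 after scaling). The 2 were AURKB, the kinase of the chromosomal passenger complex, at 916, 517 and 717, and TTK, the checkpoint kinase MPS1, at 212, 123 and 165. They were 1.66-fold and 1.59-fold lower, and 1.35-fold and 1.33-fold after scaling. None of 24 spindle motors and spindle proteins was beyond 1.5-fold, though 20 lay below 0 with a median of -0.153 (-0.177 after scaling), among them KIF20A at 467, 321 and 354 (-0.49, -0.46 after scaling). The kinetochore list had 23 of 31 members below 0 and a median of -0.066 (-0.161 after scaling), and the homologous recombination list 19 of 23 and -0.130 (-0.106 after scaling), neither with a member beyond 1.5-fold. The E2F and retinoblastoma list had 14 of 19 below 0, none beyond 1.5-fold and a median of -0.162 (-0.023 after scaling). The list of the anaphase-promoting complex, cohesin and condensin had 19 of 29 below 0, none beyond 1.5-fold and a median of -0.121 (-0.102 after scaling). Cyclins and cyclin-dependent kinases did not lean either way, with 10 below and 9 above 0, a median of -0.021 and CCNB2 alone beyond 1.5-fold. Mismatch and excision repair had the median of all genes, -0.011, with ERCC1, at 147, 267 and 190 (1.63-fold higher, 1.37-fold), as its member beyond 1.5-fold. Of 32 genes of origin licensing and the fork 2 were lower, the licensing factor CDT1 at 389, 223 and 258 (1.66-fold, 1.38-fold) and the sliding clamp PCNA at 2550, 1485 and 1863 (1.61-fold, 1.32-fold). Of 28 genes of DNA polymerases and nucleotide synthesis 2 were lower and 1 higher. DNA ligase LIG1 read 432, 258 and 268 (1.6-fold, 1.42-fold) and the reductase subunit RRM1 1457, 936 and 1258 (1.51-fold, 1.48-fold), while IMPDH1, an enzyme of guanine nucleotide synthesis, read 33, 76 and 69 (1.56-fold higher, 1.14-fold). The checkpoint protein BUB3, at 518, 595 and 504, lay above 0 (0.20, 0.23 after scaling), and the dim PLK1, at 12, 21 and 27, above 0 before scaling and below it after (0.21, -0.11).

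Promoters of the cyclin gene CCNB2, the passenger complex gene CDCA8 and the centromere histone gene CENPA are shown because each lay below 0 and holds TTTGAA, the core of the cell cycle homology region that the MuvB complex reads, close to its start. The RefSeq windows of GRCh38.p14 are on the plus strand at chr15:59104896-59105195, chr1:37692266-37692565 and chr2:26785806-26786105, and the match, in capitals, begins 29, 23 and 18 bases before the start.
CCNB2: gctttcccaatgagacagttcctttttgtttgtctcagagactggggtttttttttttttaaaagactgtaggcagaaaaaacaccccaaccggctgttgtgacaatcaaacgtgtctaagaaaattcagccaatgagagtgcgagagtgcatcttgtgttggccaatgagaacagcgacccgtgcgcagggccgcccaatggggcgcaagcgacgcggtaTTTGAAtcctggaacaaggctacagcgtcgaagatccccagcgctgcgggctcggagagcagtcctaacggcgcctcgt
CDCA8: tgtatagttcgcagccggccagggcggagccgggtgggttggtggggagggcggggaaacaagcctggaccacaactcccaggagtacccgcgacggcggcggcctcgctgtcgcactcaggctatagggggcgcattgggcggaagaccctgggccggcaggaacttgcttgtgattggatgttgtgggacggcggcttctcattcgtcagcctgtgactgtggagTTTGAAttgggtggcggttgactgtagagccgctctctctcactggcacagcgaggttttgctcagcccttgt
CENPA: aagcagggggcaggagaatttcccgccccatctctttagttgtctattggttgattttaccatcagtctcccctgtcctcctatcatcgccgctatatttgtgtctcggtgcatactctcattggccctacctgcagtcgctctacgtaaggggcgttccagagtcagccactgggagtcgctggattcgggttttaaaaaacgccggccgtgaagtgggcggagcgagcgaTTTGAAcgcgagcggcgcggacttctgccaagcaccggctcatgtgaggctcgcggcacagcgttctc
CCNB2 read 939, 571 and 668 (-0.63, -0.34 after scaling), CDCA8 729, 525 and 572 (-0.42, -0.35) and CENPA 969, 698 and 650 (-0.41, -0.50). TTTGAA on either strand was in 11.2% of detected genes with a promoter. It was in 8 of 15 genes of the mitotic kinase list, 13 of 27 kinetochore genes and 16 of 23 spindle genes. Among all genes at least 1.5-fold lower it was in 7 of 62 (11.3%), no more than in the background.

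Targets of ATF4, the factor that answers amino acid shortage, were at least 1.5-fold lower in 3 of 29 and higher in none. Over all genes 0.522% were lower and 1.59% higher at 1.5-fold, and 54.7% lay below 0. The list had a median of -0.218 (-0.262 after scaling) and 20 below 0, and after scaling 1 member was beyond 1.5-fold. NUPR1, a small stress-induced chromatin protein, read 243, 122 and 158 (1.79-fold lower, 1.68-fold after scaling). The amino acid exchanger SLC7A5 read 2725, 1619 and 1935 (1.59-fold, 1.25-fold) and the serine synthesis enzyme PHGDH 2346, 1478 and 1802 (1.51-fold, 1.44-fold). ATF4 itself read 515, 691 and 807 and lay at 0.41, but at -0.43 after scaling. Of 23 NRF2 targets 3 were lower and none higher, namely haem oxygenase HMOX1, at 954, 567 and 689 (1.6-fold, 1.57-fold), OSGIN1, at 398, 255 and 250 (1.51-fold, 1.45-fold), and NQO1, at 7335, 4554 and 6835 (1.51-fold, 1.27-fold). After scaling 2 NRF2 targets were lower, with OSGIN1 and NQO1 no longer among them and another member joining. The glutathione synthesis gene GCLC lay at 0.27. Among Wnt and beta-catenin targets 1 of 29 was lower, the receptor FZD4 at 153, 83 and 124 (1.63-fold, 1.41-fold). In that list 23 lay below 0, and 20 after scaling, with a median of -0.107 (-0.036 after scaling). After scaling none of them was beyond 1.5-fold.

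**Figure D4:**
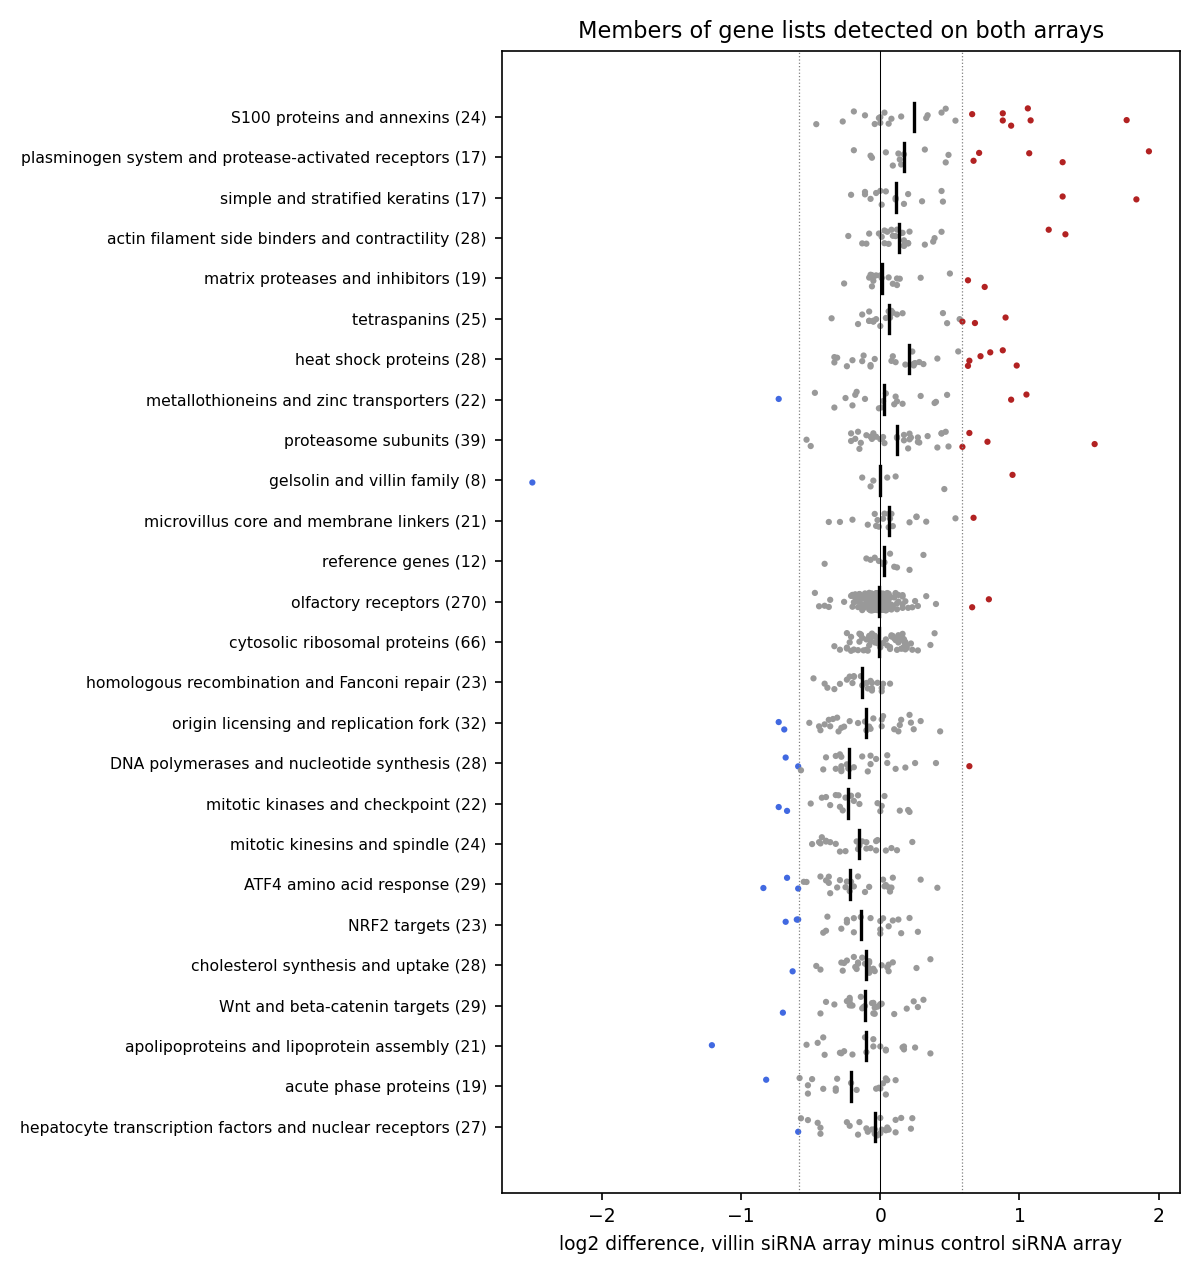
Log2 difference between the villin siRNA array and the control siRNA array (x axis) for each detected member of 26 gene lists (y axis, number of members in brackets). Points are genes, black bars list medians, dotted lines 1.5-fold, and red and blue points lie beyond it. The red points of the S100 and annexin list reach 1.77, the villin family holds VIL1 at -2.50, and ribosomal proteins stay inside the dotted lines.

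Smaller lists held single members with a difference, beside 1.59% of all genes higher and 0.522% lower at 1.5-fold. CYP24A1, which breaks down active vitamin D, read 219, 461 and 438 and was the 1 of 33 detected cytochromes P450 beyond 1.5-fold (1.92-fold higher, 1.5-fold after scaling). It was high on both siRNA arrays. Of 24 tight junction proteins only CLDN4, a claudin that limits paracellular leak, was beyond 1.5-fold, at 50, 127 and 78 (1.84-fold higher, 1.83-fold). Of 15 Notch pathway genes it was the ligand JAG1, at 101, 177 and 141 (1.51-fold higher, 1.69-fold), and of 31 immediate early and MAPK feedback genes KLF6, a zinc finger factor, at 110, 212 and 133 (1.64-fold higher, 1.7-fold). The complement list of 22 had 1 member each way, CD59, the membrane inhibitor of the attack complex, at 593, 942 and 656 (1.59-fold higher, 1.64-fold), and the protease factor D (CFD) at 183, 100 and 170 (1.65-fold lower, 1.35-fold). Of 24 plasma carrier and precursor proteins angiotensinogen (AGT) alone was beyond 1.5-fold, at 3267, 1717 and 2439 (1.82-fold lower, 1.49-fold).

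Several large families with no stated tie to villin held few members beyond 1.5-fold, beside 1.59% of all genes higher and 0.522% lower. None of 66 cytosolic ribosomal proteins and none of 36 subunits of respiratory complex I was beyond 1.5-fold, and neither was any of 12 reference genes. Of 411 zinc finger genes named ZNF 2 were at least 1.5-fold higher and none lower, and of 270 olfactory receptors likewise 2 and none. Of 327 solute carriers 2 were higher and 4 lower. The medians of these families lay between -0.041 and 0.024. The olfactory receptors were dim, summed at 4902 over 270 genes on the control array, and the offset shrinks differences of dim genes. In the deposited table, which has no offset, 45 of them were at least 1.5-fold higher and 38 lower. Of the ZNF genes 40 and 12 were, beside 10.4% and 5.41% of all genes there. The low counts of these 2 families are therefore no measure of stability.

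The labelled cell type was read from its markers. Of 13 defining hepatocyte genes on the array all were detected on both arrays and none was beyond 1.5-fold. Their median was -0.045 on the log2 scale (-0.022 after scaling), with 8 below and 4 above 0. Their summed deposited intensity was 48802 on the control array and 35805 on the villin siRNA array, a fall that came mostly from albumin and transferrin. On the deposited scale their median difference was -0.170. The cytosolic ribosomal proteins also summed lower on that scale, at 736074 and 647037. How much of the fall belongs to the scale was not tested. Albumin (ALB) read 14421, 8938 and 12932 and lay at -0.56 (-0.38 after scaling), transferrin (TF) read 17375, 11192 and 14632, and transthyretin (TTR) 503, 596 and 683. CYP3A4 and CYP2E1, enzymes of mature hepatocytes, were near the floor, at 4, 4 and 3 and 6, 5 and 3. Markers of other cells were few or dim. Of 13 detected immune markers, summed at 936 and 1284, only lysozyme (LYZ) was beyond 1.5-fold, at 226, 455 and 383 (1.86-fold, 1.91-fold higher), while CD3D read 37, 48 and 30 and CD14 15, 26 and 24. The endothelial list, summed at 547 and 610, had no member beyond 1.5-fold. The squamous list, summed at 2544 and 4135, holds S100A2, its keratin KRT5 read 46, 46 and 41, and the neuroendocrine list, summed at 2496 and 3013, holds VGF and RAB3B while its defining CHGA read 12, 8 and 7 and SYP 29, 27 and 17. The intestinal list had VIL1 as its single member beyond 1.5-fold, with CDX2 at 8, 7 and 4. The part of other cells in any of the differences was not tested.

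Probes that carry no gene name add little beyond the named ones. Of 3709 such probes with values on both arrays, 8 (0.216%) lay beyond 2-fold on the higher side and 0 on the lower. The highest, H300001024, read 2465, 10554 and 10467, low on the control array alone, and was 4.49-fold higher (2.79-fold after scaling). The lowest, AHsV10002394, read 4580, 2361 and 3790 and was 1.79-fold lower (1.41-fold). Counted by probe rather than by gene, 58 (0.267%) probes were at least 2-fold higher and 3 (0.0138%) lower.

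Repeated spots show a part of the spread of a single reading. The 24 spots of each positive control had an SD of 0.148 and 0.252 in their log2 difference between the arrays. This was taken before normalisation and without the offset. The spots were bright, with medians of 37700 and 18500 units on the control array. Detected gene probes there had a median of 31.6 above the blank, so the SDs do not describe dim and middle genes. Among 2013 genes with 2 probes on both arrays, the gap between the probes' log2 differences had an SD of 0.239. Where the brighter probe differed by at least 1.5-fold, in 42 genes, the second went the same way in 33 and by at least 1.5-fold in 7. The second probe is the dimmer of the 2, so the offset shrinks its difference more. These spreads hold no variation between cultures. In the authors' deposited table, which has no offset, 591 (3.72%) genes were at least 2-fold higher and 289 (1.82%) lower, and 1648 (10.4%) and 860 (5.41%) passed 1.5-fold. Of the 591, 407 had both values under 25, and of the 289, 276. With the scanner's own background reading beside each spot, which follows the spot signal, 36 of the 46 higher genes kept their sign. The 10 that turned were VGF, TUBB2B, CDKN2B, NGFR, ZBTB7A, IL18, SERPINE2, ANXA3, MRPL52 and SP140.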

How the data were processed

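Per the labels' protocols, RNA of 3 HepG2 cultures was amplified, coupled to Cy5 and read on one-colour arrays. The scanner files give each spot a median intensity and a background column, per the file headers. The intensities the authors deposited are rounded. Subtracting the blank mean from the spot median and dividing by 1.263, 1.601 and 1.337 gave them within 0.5 units, with a median of 25 on each array. Probes within 2 SDs of the blank mean or flagged by the scanner have no value there. The software behind that table is not given in the sources used here.

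Scanner intensities were corrected with normexp (offset 50) against the mean of the blank spots (60.77, 61.69 and 61.61 units on the 3 arrays, 5% trimmed at each end) and quantile-normalised together (R 4.3.3, limma 3.58.1). Signal over background limits the precision of dim genes, and 22090, 22525 and 22064 of 24460 probes were detected. The brightest probe stood for a gene. Of the array's symbols 17238 were current in RefSeq, 2899 were updated and 99 stayed unmatched. Position scaling divided the signal by its local deviation in a window of 11 columns by 5 rows. Genes were counted at 2-fold and 1.5-fold, with no test and no p-value. Alternatives were median scaling, cyclic loess, quantile normalisation of the 2 arrays alone, an offset of 16, plain subtraction, no background correction, the background column, the deposited table, position scaling, a deposited value of at least 25 and the mean of probes. The steps were tested on simulated arrays.

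Named genes are those at least 2-fold apart, the 40 highest and 40 lowest of the brighter genes, and of each gene list up to 5 members at each end, those beyond 1.5-fold and the markers. The members, the lists and these rules were chosen with earlier results of these data known. Nothing in the labels says that replicate cultures were pooled. Counts and figures were made with pandas 2.3.3, numpy 2.4.6 and matplotlib 3.10.9 under Python 3.11.15. Genes detected on 1 array only (240 on the control and 504 on the villin siRNA array) were left out of the counts.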

Additional observations from a re-analysis of the deposited data

How the results depend on the processing

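No paired analysis was possible because each group has 1 array and the labels give no replicate numbers, and for the same reason no replicate could be left out. Of 11 alternatives, a lower offset, plain subtraction, the authors' deposited table and the background column raised the counts most, while no background correction left all 4 within 1.5 times. In the order 2-fold higher, 2-fold lower, 1.5-fold higher and 1.5-fold lower, the counts of 46, 2, 253 and 83 became 82, 7, 422 and 142 with an offset of 16, 477, 78, 1615 and 529 with plain subtraction, and 591, 289, 1648 and 860 in the authors' deposited table. With the background column they became 208, 307, 515 and 607. Position scaling gave 30 and 2, and 144 and 45, and median scaling gave 49 for the last count. The other counts stayed within 1.5 times. VIL1 lay between -2.84 and -2.21 except with the background column, at -1.09. Of the named genes beyond 1.5-fold, EPS8L2 turned to -0.19 and HSPD1 to -0.15 after position scaling. With the background column these of them turned below 0: ANXA3 (-0.08), CD63 (-0.10), CDKN2B (-0.08), CLDN4 (-0.14), HSPD1 (-0.16), IMPDH1 (-0.22), IL18 (-0.01), JAG1 (-0.02), MRPL52 (-0.30), NGFR (-0.11), SERPINE2 (-0.73), SP140 (-0.04), TUBB2B (-0.45), TUBB6 (-0.30), VGF (-0.18) and ZBTB7A (-0.03). These turned above 0: AGT (0.51), CCNB2 (0.14), CEBPA (0.73), FGL1 (0.65), FZD4 (0.42), HMGCS1 (0.43), HMOX1 (0.46), NUPR1 (0.07), OSGIN1 (0.71), RRM1 (0.86), SLC39A7 (1.02) and SLC7A5 (1.68). Of the 52 named genes within 1.5-fold, 4 turned after position scaling, ATF4 (-0.43), CDK4 (-0.16), PLK1 (-0.11) and APOA1 (-0.03), and 20 with the background column, among them BAIAP2L1 (-0.75), ATF4 (-0.23), BUB3 (-0.12) and ANXA4 (0.27). Among the 55 lists described in the text, 20 had a median of at least 0.1 in size, and with the background column 10 of these turned, to -0.015 for the plasminogen system, -0.037 for heat shock proteins, -0.183 for proteasome subunits, 0.042 for origin licensing, 0.005 for E2F proteins, 0.036 for the anaphase-promoting complex, 0.003 for NRF2 targets, 0.008 for Wnt targets, 0.009 for apolipoproteins and 0.017 for acute phase proteins. The other 10 kept their sign in all 11 alternatives. The cause was not tested. The background column correlated with the spot signal at r = 0.981, 0.989 and 0.983 on the 3 arrays. Where an array lies near the blank spots, the size of a difference depends on the treatment of low signal, as for HSPB8, at 0.88 with the offset of 50 and 2.13 in the deposited table.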
